A study of Mus musculus with 36 samples.

Results

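Ribosome biogenesis genes are described here through 37 genes, named by symbol, out of the 29883 genes counted in mouse macrophages and glioma cells. All 37 were found and all passed the low-count filter in both cell types. By role they comprise the transcription factor gene Myc, 4 genes of RNA polymerase I and its transcription, 3 of the C/D box and 4 of the H/ACA box small nucleolar ribonucleoproteins (snoRNPs), 4 nucleolar histone chaperones and shuttling proteins, 11 small subunit and 10 large subunit processing factors.

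The study asked how macrophages and tumour cells respond to myelin debris and to each other. Macrophages were derived from bone marrow of mice. The labels give no genotype or age for them, and the extraction protocol names a dTomato reporter for macrophages of ex vivo assays. Tumour cells were the single cell line PDG-Ink4a Recurrent, called mesenchymal-like (MES-like) in the extraction protocol and named after a model in which platelet-derived growth factor-b is enforced in Nestin-positive progenitors lacking Ink4a/Arf, so every tumour group shares that driver and that deletion. Each cell type was kept alone (mono-culture) or with the other (co-culture) and taken at 0 h, labelled as control, or at 6 h or 24 h after myelin debris. These 2 cell types, 2 cultures and 3 times gave 12 groups of 3 libraries, numbered 001 to 003 in the labels. The labels do not state if the 3 libraries per group derive from different cultures or animals, so p-values measure the spread between these libraries, which may be technical. The labels also do not say how long the 0 h cultures were kept, so myelin and time in culture cannot be told apart.

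Ribosomes are assembled in the nucleolus. RNA polymerase I makes a long precursor ribosomal RNA, C/D box snoRNPs guide its 2′-O-methylation and H/ACA box snoRNPs its pseudouridylation, and separate sets of processing factors shape the small and the large subunit. MYC is a transcription factor known to activate many of these genes in growing cells, through the E-box CACGTG among other sites. Libraries were primed with oligo-dT, so these data measure the messenger RNAs of the assembly factors, not ribosomal RNA or ribosomes.

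The E-box was looked for because members that move together include Myc itself. RefSeq promoter windows of build GRCm38.p6, 300 bases long with 250 before the start and 50 from it, were matched by symbol for 31 of the 37 genes. Some genes had more than 1 window, and a gene was counted once if any of its windows held the motif. CACGTG, which reads the same on both strands, was present for 6 of the 31 genes (19.4%). It was present for 2187 of all 27025 gene symbols with a window (8.09%). Among symbols with at least 1 read counted here, it was present for 1602 of 15689 (10.2%). A match describes letters only and does not show binding. The 6 windows are those of Pes1, Utp20, Nop2, Mybbp1a, Utp4 and Wdr43. For each, 30 bases around the motif are shown 5′ to 3′ on the gene's strand, with the motif in capitals. The first 2 are genes followed throughout, and the other 4 were chosen after their windows were seen.
Pes1: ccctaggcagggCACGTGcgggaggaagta
Utp20: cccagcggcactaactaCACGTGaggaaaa
Nop2: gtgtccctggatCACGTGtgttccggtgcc
Mybbp1a: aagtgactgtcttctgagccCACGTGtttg
Utp4: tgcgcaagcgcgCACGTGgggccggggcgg
Wdr43: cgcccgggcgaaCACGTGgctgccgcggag
The stretches lie at chr11:3963965-3963994 (Pes1, plus strand), chr10:88826765-88826794 (Utp20, minus strand), chr6:125131811-125131840 (Nop2, plus strand), chr11:72441347-72441376 (Mybbp1a, plus strand), chr8:106893643-106893672 (Utp4, plus strand) and chr17:71616220-71616249 (Wdr43, plus strand). Counted from 1 at the start base, the motif begins at position 3 in Pes1, 38 in Utp20, 41 in Mybbp1a, 16 in Utp4 and 18 in Wdr43, and at position -60 in Nop2. The motif therefore followed the annotated start in 5 of the 6 windows.

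Total counts per library ran from 7911378 to 15319104, with a median of 12262573. Levels are CPM (counts scaled to a fixed library size) after TMM normalisation within a cell type, that is, shares of a library's counts. In such bulk samples, fewer cells of a type and less RNA per cell cannot be told apart. All 15 macrophage markers averaged over 10 CPM in macrophages. In tumour cells at 0 h in mono-culture, 8 of 14 glioma and glial markers did, among them Pdgfra, Sox2 and Sox9, while Olig1 was at 0, Sox10, Ptprz1, Bcan, Fabp7 and Gfap were near 0, and 9 of 10 mesenchymal markers also averaged over 10 CPM. The glioma and glial list is only partly specific. In macrophages alone at 0 h 5 of its 14 genes averaged over 10 CPM, with a mean sum of 4150 CPM against 9510 CPM in the tumour cells. Libraries numbered 001 stood apart. The transcript CT010467.1, which carries ribosomal RNA sequence, took up to 17.4% of their counts and at most 2.2% in the others. Libraries 001 of co-cultured tumour cells at 6 h (0.267%) and 24 h (2.13%) did not exceed that. Summed macrophage markers were 15 to 27.8 CPM in tumour cell libraries 001 and 306 to 2020 CPM in libraries 002 and 003. Macrophage libraries held summed mesenchymal markers of 0.913 to 23.6 CPM when cultured alone and 211 to 1180 CPM when co-cultured. The treatment of strand in counting was not given in the sources used here. Of the 37 members, 16 share exonic bases with a gene on the opposite strand. The share of exonic bases was 20.9% for Noc2l (with Samd11) and 9.37% for Bysl (with Ccnd3), and at most 5.27% for the others. For each of these 16 genes, reads of the 2 strands cannot be told apart.

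At 24 h after myelin the ribosome biogenesis genes stood lower than at 0 h in both cultures of both cell types. In co-cultured tumour cells none was called in the main fit, while 24 were with the library number as a block, as described below. In macrophages in mono-culture 25 of 37 fell and none rose, with a median log2 change of -0.50. Of all 13165 genes tested there, 7.61% were called lower and the median was 0.00. A gene was called at an adjusted p under 0.05, from edgeR's quasi-likelihood test with Benjamini-Hochberg adjustment over all genes tested. In co-cultured macrophages 20 of 37 fell, against 6.02% of all genes, with a median of -0.46. Of the genes called, 18 were the same in both macrophage cultures. The share of all genes called in both is not given here. In tumour cells in mono-culture 18 of 37 fell, against 6.81% of 13603 genes, with a median of -0.58. In co-cultured tumour cells none of the 37 was called, where 0.309% of all genes were called lower, and the median was -0.39. All 37 changes were below 0 in each of these 4 comparisons, and in co-cultured macrophages 36 were with RLE or DESeq2 size factors.

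Markers of the other cell type moved in the same comparisons. In tumour mono-culture all 15 macrophage markers stood higher at 24 h than at 0 h, with a median log2 change of 2.18. None was called, and 14 were with the library number as a block. Their summed level was 15, 306 and 409 CPM in libraries 001, 002 and 003 at 0 h and 17.1, 1580 and 2020 CPM at 24 h, and 6 and then 14 of the 15 averaged over 10 CPM. In library 001, where that sum was 15 and 17.1 CPM, the mean of the 37 genes, centred as described below, was -0.15 at 0 h and -0.71 at 24 h. In tumour co-culture 4 of 15 macrophage markers stood higher at 24 h, with a median of -0.37. In co-cultured macrophages all 8 mesenchymal markers tested stood higher at 24 h, with a median of 1.63, and 4 rose (5 with the block). Their sum over 10 markers was 290, 729 and 443 CPM at 0 h, where Lum was at 0, and 1180, 963 and 864 CPM at 24 h, without overlap. In mono-cultured macrophages that sum was 3.02 to 10.3 CPM at 0 h and 4.31 to 23.6 CPM at 24 h. The part of these signals in the members' changes was not tested. Leaving out a single library does not test it, since the signals were present in several libraries.

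**Figure D1:**
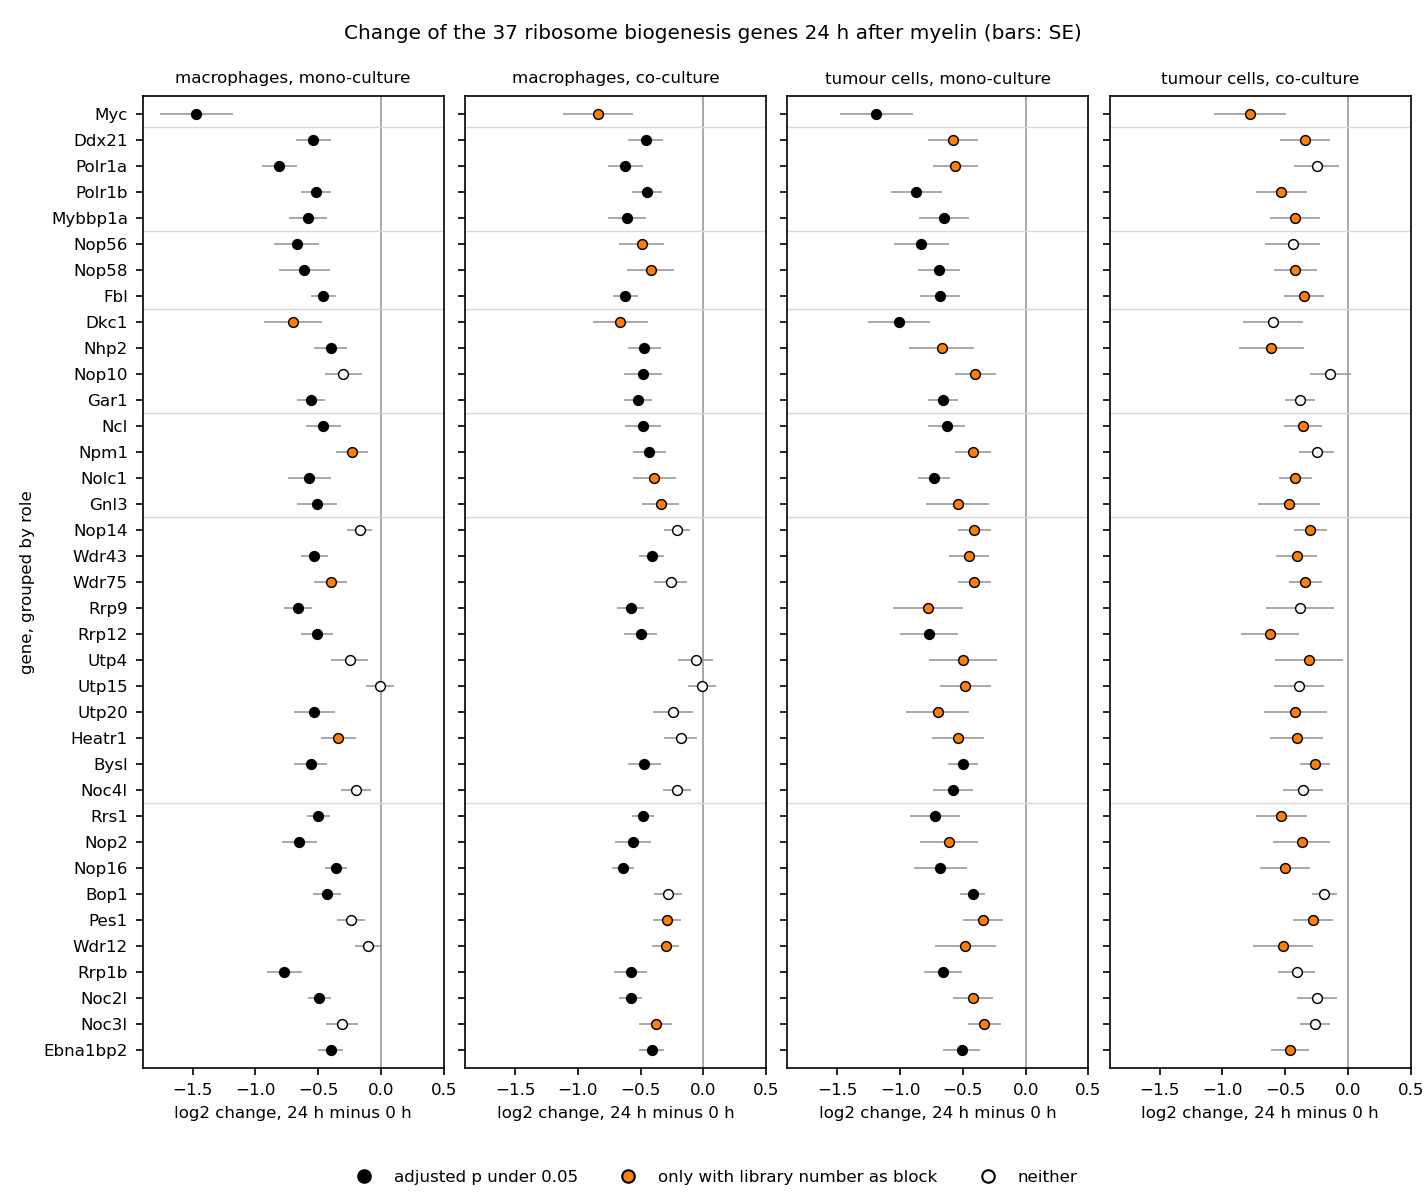
Log2 change from 0 h to 24 h after myelin (x axis) for each of the 37 genes (y axis, grouped by role), in the 4 combinations of cell type and culture, with standard errors as bars. Black points are the genes called, 25, 20, 18 and 0 from left to right, orange points those called in the blocked fit alone, and all points lie left of 0, Utp15 in macrophages at -0.01.

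Libraries of the same number deviated together in these comparisons, and a fit with that number as a block is given by role and for Myc and the genes followed throughout, where it changes a call. Calls are without the block unless it is named. With the block all 37 genes fell in tumour cells in mono-culture (15% of all genes lower) and 24 fell in co-culture (5.03%). In macrophages 29 fell in each culture (11.6% and 10.3%), and 17 genes fell in all 4 comparisons. The share of all genes falling in all 4 is not given here. Of the genes followed throughout, those called in tumour co-culture with the block but not described there below were Polr1b (-0.53 ± 0.20, adjusted p = 0.239, 0.0323 with the block), Fbl (-0.35 ± 0.16, 0.339 and 0.0339), Ncl (-0.36 ± 0.15, 0.299 and 0.0404), Rrs1 (-0.53 ± 0.20, 0.251 and 0.0202), Rrp12 (-0.62 ± 0.23, 0.235 and 0.0203) and Utp20 (-0.42 ± 0.25, 0.464 and 0.0486). The block also called Npm1 (adjusted p = 0.0619 without and 0.00988 with it) and Utp20 (0.0864 and 0.00137) in tumour mono-culture and Dkc1 (0.066 and 0.00151) in macrophage co-culture. At an unadjusted p under 0.05, 21 of 37 passed in co-cultured tumour cells without the block, and DESeq2 called none (3.26% of all genes). The share of all genes passing that unadjusted threshold is not given here. With libraries 002 and 003 alone, an alternative chosen after seeing the data, 35 were called in co-cultured tumour cells (22.6% of all genes in either direction), 37 in tumour mono-culture (35.9%), and 29 and 23 in macrophages in mono- and co-culture (17.4% and 15.4%).

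The counts depended on single libraries, and the counts over all genes moved too. In macrophage mono-culture 9 genes were called without 0 h library 002, 16 without 0 h library 003 and 16 without 24 h library 003. Of all genes 772, 1007 and 997 were called in these cases, against 1998 with every library. In macrophage co-culture, leaving out 0 h library 002, 0 h library 003, 24 h library 001 or 24 h library 003 left 6, 8, 8 and 10. Of all genes 664, 737, 1141 and 823 were then called, against 1502 with every library. In tumour mono-culture, leaving out 0 h library 002 or 003 left 3 and 2 (769 and 668 of all genes). Leaving out 24 h library 001, 002 or 003 there left 3, 11 and 3 (925, 770 and 537 of all genes). In tumour co-culture 6 were called without 0 h library 001 (621 of all genes). Over all alternatives the median change stayed between -0.58 and -0.42, -0.53 and -0.38, -0.69 and -0.49, and -0.54 and -0.24 in the 4 comparisons in that order.

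The groups' libraries did not overlap, with every 24 h library below every 0 h library, for 28 and 26 of the 37 genes in macrophages in mono- and co-culture (15.2% and 17.7% of all genes). In tumour cells this held for 35 genes in mono-culture (17.5% of all genes) and 5 in co-culture (8.33%). The mean of the 37 genes, as log2(CPM + 0.5) centred on each gene's mean over the 18 libraries of the cell type, differed between library numbers. In co-cultured tumour cells it was -0.14, 0.47 and 0.42 in libraries 001, 002 and 003 at 0 h and -0.46, 0.05 and 0.01 at 24 h. Each library thus stood lower at 24 h than the library of its number at 0 h, while library 001 stood below the others at both times. In macrophage mono-culture the mean was -0.06, 0.24 and 0.07 at 0 h and -0.39, -0.27 and -0.49 at 24 h, without overlap. The 37 genes together took 0.299% ± 0.0662 (SD, n = 3) of counts in macrophage mono-culture at 0 h and 0.223% ± 0.0321 at 24 h. In tumour mono-culture they took 0.411% ± 0.0604 and 0.291% ± 0.027.

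**Figure D2:**
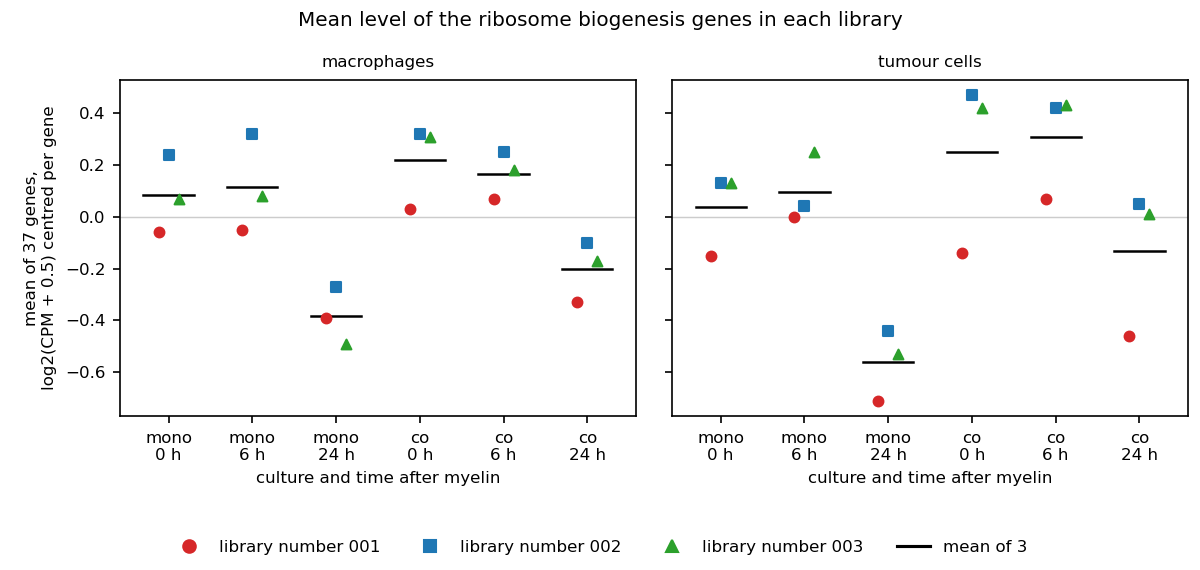
Mean of the 37 genes in each library (y axis, log2(CPM + 0.5) centred per gene within a cell type) by culture and hours after myelin (x axis), with a symbol per library number and a line at the mean of 3. The 24 h groups lie lowest in each culture, and library 001 lies below 002 and 003 in most groups, with 0 h co-cultured tumour cells at -0.14 against 0.47 and 0.42.

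Myc (chr15:61985391-61990374 in mm10, plus strand) had the widest range of group means of the 37 genes in macrophages, 3.14-fold. In macrophage mono-culture, libraries 001, 002 and 003 held 40.5, 64.0 and 61.6 CPM at 0 h, 23.4, 50.1 and 35.6 CPM at 6 h and 13.9, 29.0 and 16.9 CPM at 24 h. Every 24 h library was below every 0 h library, and the change was -1.47 ± 0.29 (log2, SE, adjusted p = 0.00479). Co-cultured macrophages went from 46.8, 71.6 and 69.5 CPM to 30.9, 37.4 and 36.8 CPM, also without overlap, with a change of -0.84 ± 0.28 that was not called (adjusted p = 0.0678) and was called with the block (adjusted p = 0.000733). In tumour mono-culture Myc fell from 118, 181 and 188 CPM to 59.4, 78.1 and 75.1 CPM, a change of -1.19 ± 0.29 (adjusted p = 0.0182). Testing without the low-count filter ended this call (adjusted p = 0.0648). In co-cultured tumour cells it was 103, 200 and 194 CPM at 0 h and 69.8, 109 and 112 CPM at 24 h, so that the groups overlapped through library 001 (-0.78 ± 0.29, adjusted p = 0.242, 0.00185 with the block). Of the proteins that share MYC's partner MAX and oppose it, Mxd1 rose in macrophages, by 0.52 ± 0.15 in mono-culture (adjusted p = 0.027) and 0.66 ± 0.15 in co-culture (adjusted p = 0.0091). Of 10 MYC partners and antagonists tested in macrophages, 1 rose in each culture and 1 fell in mono-culture. Of all 13165 genes, 996 and 710 were called higher in mono- and co-culture, so 1 of 10 is near that share. Mxd1 was not called in tumour cells (0.30 ± 0.20 and 0.49 ± 0.21), and Max itself was called in none of the 4 comparisons.

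All 4 members of RNA polymerase I and its transcription fell in each macrophage culture, and 2 of 4 fell in tumour mono-culture. With the block 4 fell in tumour mono-culture and 3 in tumour co-culture. This holds for these 4 only. Of 13 other RNA polymerase I genes, 1 fell in each macrophage culture, with medians of -0.16 and -0.10. Polr1a encodes the largest subunit of the polymerase. In macrophage mono-culture it fell from 79.8, 95.5 and 85.8 CPM to 51.5, 53.3 and 44.3 CPM (-0.81 ± 0.14, adjusted p = 0.00195), and in co-culture by a log2 change of -0.62 ± 0.14 (adjusted p = 0.0114). All libraries of 24 h lay below those of 0 h in both. Polr1b (chr2:129100995-129126594, plus strand), the gene of the second largest subunit, had a smaller change than Polr1a in macrophages and a larger one in tumour cells, a contrast that was not tested. It went from 25.1, 29.1 and 28.2 CPM to 20.9, 19.0 and 18.0 CPM in macrophage mono-culture (-0.52 ± 0.12, adjusted p = 0.0122). In tumour mono-culture it fell from 31.0, 40.8 and 38.3 CPM to 18.2, 21.3 and 20.7 CPM (-0.87 ± 0.20, adjusted p = 0.0141), without overlap. Mybbp1a, a nucleolar partner of transcription factors, fell in both macrophage cultures (-0.58 ± 0.15 and -0.61 ± 0.15) and in tumour mono-culture (-0.65 ± 0.20). The RNA helicase gene Ddx21 fell in both macrophage cultures (-0.54 ± 0.14 and -0.46 ± 0.14) and had -0.58 ± 0.20 in tumour mono-culture, called with the block (adjusted p = 0.000406).

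**Figure D3:**
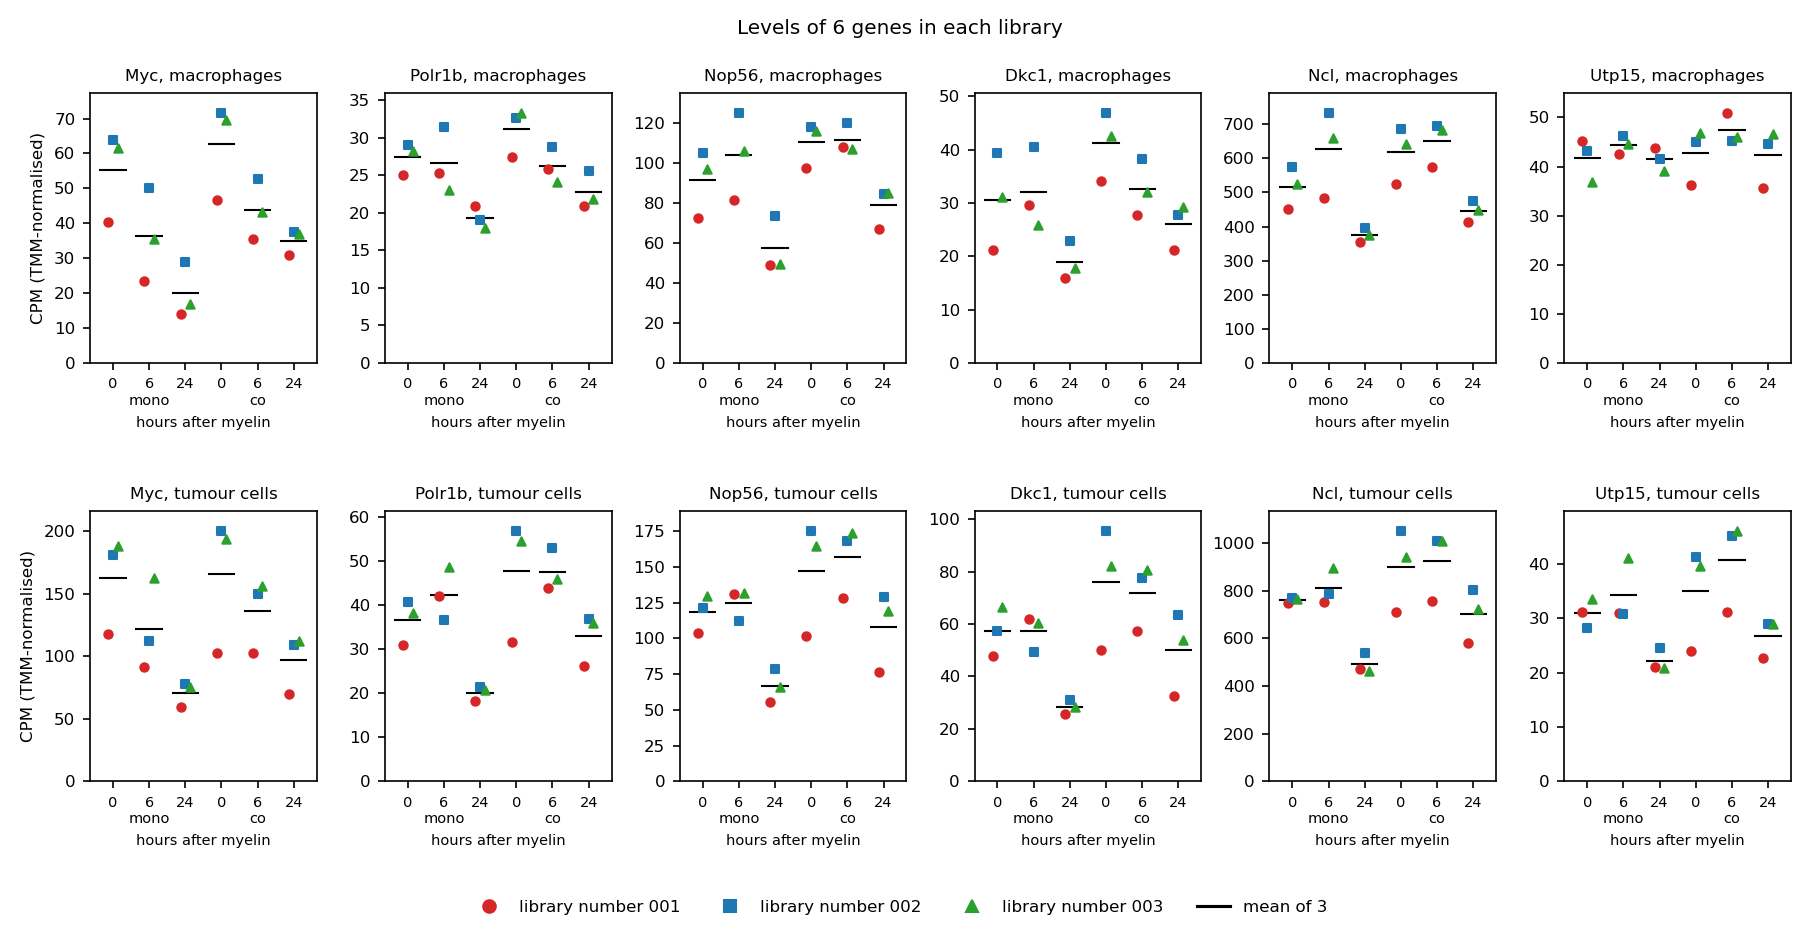
CPM after TMM normalisation (y axis, from 0) of Myc, Polr1b, Nop56, Dkc1, Ncl and Utp15 in each library of macrophages (top) and tumour cells (bottom), by culture and hours after myelin (x axis), with lines at the mean of 3. Myc has a lower mean at 6 h than at 0 h in all 4 cultures, the first 5 genes have their lowest means at 24 h, and Utp15 in macrophages has group means between 41.5 and 47.4 CPM.

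Among the C/D box snoRNP genes, all 3 fell in both mono-cultures and 1 in macrophage co-culture. With the block 3 fell there and 2 in tumour co-culture. Nop56 (chr2:130274430-130279313, plus strand), a core protein of the particle, went in macrophage mono-culture from 72.6, 105 and 96.8 CPM to 49.1, 73.4 and 49.6 CPM (-0.67 ± 0.18, adjusted p = 0.0219). The 24 h library 002 there lay just above 0 h library 001, so the groups overlapped, and the call was lost without the low-count filter (adjusted p = 0.078) and within the compared groups alone (adjusted p = 0.0671). In tumour mono-culture Nop56 fell from 104, 121 and 130 CPM to 55.3, 78.4 and 66.1 CPM (-0.83 ± 0.22, adjusted p = 0.0264), without overlap, a call that also ended without the filter (adjusted p = 0.0666). Fbl, the methyltransferase of the particle, fell in macrophage co-culture from 54.6, 65.4 and 63.1 CPM to 39.2, 40.7 and 39.4 CPM (-0.62 ± 0.10, adjusted p = 0.00162). It also fell in macrophage mono-culture (-0.46 ± 0.10, adjusted p = 0.00743) and in tumour mono-culture (-0.68 ± 0.16, adjusted p = 0.0177), each time with all 24 h libraries below all 0 h libraries. Nop58, the paired core protein, fell in both mono-cultures, by log2 changes of -0.61 ± 0.20 in macrophages and -0.69 ± 0.17 in tumour cells. In macrophage co-culture Nop56 had -0.49 ± 0.18 (adjusted p = 0.0915, 0.00364 with the block) and Nop58 had -0.42 ± 0.19 (adjusted p = 0.177, 0.00624 with the block).

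Of the 4 H/ACA box genes, 2 fell in macrophage mono-culture, 3 in macrophage co-culture and 2 in tumour mono-culture. With the block 3, 4 and 4 fell, and 1 in tumour co-culture. Dkc1 (chrX:75095854-75109777, plus strand) encodes dyskerin, the pseudouridine synthase, and had the widest range of group means in tumour cells, 2.67-fold. In tumour mono-culture it fell from 47.8, 57.3 and 66.5 CPM to 25.7, 31.1 and 28.3 CPM (-1.01 ± 0.25, adjusted p = 0.0196, and 0.0539 without the filter), with all 24 h libraries below 0 h. In macrophage mono-culture its libraries held 21.1, 39.4 and 31.1 CPM at 0 h and 16.0, 22.9 and 17.9 CPM at 24 h, which overlapped (-0.70 ± 0.23, adjusted p = 0.0501, 0.00116 with the block). Gar1, a core protein, fell in 3 of the 4 comparisons. In macrophage mono-culture Gar1 went from 12.7, 14.2 and 12.3 CPM to 8.72, 9.02 and 8.86 CPM (-0.56 ± 0.11, adjusted p = 0.00408). Nhp2, another core protein of the particle, fell in both macrophage cultures (-0.40 ± 0.13 and -0.47 ± 0.13), and Nop10 passed in macrophage co-culture (-0.48 ± 0.15, adjusted p = 0.0472).

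Of the 4 nucleolar chaperones and shuttling proteins, 3 fell in macrophage mono-culture, 2 in macrophage co-culture and 2 in tumour mono-culture. With the block all 4 fell in each of these and 3 in tumour co-culture. Ncl (chr1:86344719-86359400, minus strand), nucleolin, binds the precursor RNA and chromatin. It fell from 450, 574 and 524 CPM to 354, 396 and 374 CPM in macrophage mono-culture (-0.46 ± 0.14, adjusted p = 0.0376). In tumour mono-culture it fell from 747, 771 and 764 CPM to 470, 540 and 463 CPM (-0.63 ± 0.15, adjusted p = 0.0172). Neither pair of groups overlapped. Npm1, nucleophosmin, went from 340, 418 and 399 CPM to 302, 349 and 338 CPM in macrophage mono-culture, with overlap and without a call (-0.23 ± 0.13, adjusted p = 0.255, 0.0159 with the block). In co-cultured macrophages it fell from 384, 498 and 456 CPM to 296, 353 and 345 CPM (-0.43 ± 0.13, adjusted p = 0.0377, and 0.067 without the low-count filter). The chaperone gene Nolc1 fell in both mono-cultures (-0.57 ± 0.17 in macrophages, -0.73 ± 0.13 in tumour cells), and Gnl3, nucleostemin, fell in macrophage mono-culture (-0.51 ± 0.16).

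Of the 11 small subunit processing factors, 5 fell in macrophage mono-culture, 4 in macrophage co-culture and 3 in tumour mono-culture. With the block these counts were 7, 4 and 11, and 8 fell in tumour co-culture. Rrp9, a U3 snoRNA-binding protein, fell in macrophage mono-culture from 19.6, 18.1 and 17.0 CPM to 12.0, 12.0 and 10.4 CPM (-0.66 ± 0.11, adjusted p = 0.00148). Rrp12 fell there from 29.4, 38.4 and 35.0 CPM to 24.5, 24.6 and 23.4 CPM (-0.51 ± 0.13, adjusted p = 0.0151) and in tumour mono-culture from 41.0, 53.1 and 52.6 CPM to 23.2, 31.6 and 31.4 CPM (-0.77 ± 0.23, adjusted p = 0.0455, and 0.107 without the filter). In both cases no library of 24 h reached the 0 h libraries. Utp20, a scaffold of the small subunit processome, went from 94.1, 114 and 107 CPM to 71.1, 85.4 and 61.4 CPM in macrophage mono-culture (-0.53 ± 0.16, adjusted p = 0.0383). That call was lost without the low-count filter (adjusted p = 0.0985). Heatr1, another large processome protein, was called in none of the 4 comparisons (-0.34 ± 0.14, -0.18 ± 0.13, -0.54 ± 0.21 and -0.41 ± 0.21), and with the block in all but macrophage co-culture (adjusted p = 0.0148, 0.00168 and 0.0251).

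Utp15 (chr13:98246845-98263041, minus strand), which supports transcription and early processing of the precursor, had the narrowest range of group means in macrophages, 1.14-fold. Its libraries held 45.2, 43.2 and 36.8 CPM at 0 h and 43.7, 41.6 and 39.1 CPM at 24 h in macrophage mono-culture, with a change of -0.01 ± 0.11. In co-cultured macrophages the change was also -0.01 ± 0.11. In tumour mono-culture Utp15 went from 31.1, 28.2 and 33.5 CPM to 21.0, 24.6 and 20.9 CPM without overlap (-0.48 ± 0.20, adjusted p = 0.138, 0.0265 with the block). The difference between the 2 cell types in this change was 0.50 ± 0.24 and was not called (adjusted p = 0.284). Utp4, which acts in the same subcomplex, had -0.25 ± 0.15 and -0.06 ± 0.14 in macrophages and was not called either. In tumour mono-culture it had -0.50 ± 0.27 (adjusted p = 0.247, 0.000717 with the block).

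Of the 10 large subunit processing factors, 7 fell in macrophage mono-culture, 6 in macrophage co-culture and 5 in tumour mono-culture. With the block 7, 9 and 10 fell, and 6 in tumour co-culture. Rrs1, which brings in the 5S RNA particle, fell in macrophage mono-culture from 30.0, 33.5 and 33.3 CPM to 23.8, 23.5 and 21.4 CPM (-0.50 ± 0.09, adjusted p = 0.00195). It fell in tumour mono-culture from 30.4, 38.2 and 39.9 CPM to 20.8, 22.0 and 23.2 CPM (-0.72 ± 0.20, adjusted p = 0.0353, and 0.0617 without the filter). Both falls were without overlap. Nop16, a nucleolar protein of the large subunit pathway, fell in co-cultured macrophages from 35.5, 39.6 and 41.5 CPM to 25.2, 24.3 and 25.6 CPM (-0.64 ± 0.09, adjusted p = 0.000904). Rrp1b fell in mono-cultured macrophages from 24.8, 32.9 and 27.9 CPM to 15.1, 20.2 and 15.1 CPM (-0.77 ± 0.14, adjusted p = 0.00189).

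Pes1, Bop1 and Wdr12 form the PeBoW complex, which acts in maturation of the large subunit RNAs. Bop1 fell in both mono-cultures (-0.43 ± 0.11, adjusted p = 0.0195, and 0.0552 within the compared groups alone, in macrophages and -0.42 ± 0.10, adjusted p = 0.0158, in tumour cells), and it had the narrowest range of group means in tumour cells, 1.40-fold. Pes1 was called in none of the 4 comparisons. Its libraries held 107, 140 and 118 CPM at 0 h and 109, 104 and 97.5 CPM at 24 h in macrophage mono-culture, which overlapped (-0.24 ± 0.11, adjusted p = 0.177). With the block it was called in the other three (adjusted p = 0.0343, 0.000673 and 0.0078). Wdr12 was not called either (-0.10 ± 0.11, -0.30 ± 0.11, -0.48 ± 0.24 and -0.52 ± 0.24), and with the block it was in all but macrophage mono-culture (adjusted p = 0.0128, 0.0085 and 0.0151). In all, 8 members were called in none of the 4 comparisons without the block, though all of them fell with it in tumour mono-culture: Nop14, Pes1, Wdr12, Wdr75, Utp4, Utp15, Heatr1 and Noc3l, 5 of them small subunit factors. A set of 11 fell in both macrophage cultures and in tumour mono-culture: Rrs1, Fbl, Ncl, Gar1, Nop16, Rrp12, Rrp1b, Bysl, Polr1b, Mybbp1a and Ebna1bp2. How many of all genes did so is not given here.

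Calls of single genes also turned on single libraries. In tumour mono-culture, leaving out 24 h library 001 or 003, or 0 h library 002 or 003, ended the calls of Myc (adjusted p of 0.0624 to 0.0704), Polr1b (0.0505 to 0.0563), Nop56 (0.0758 to 0.0986), Dkc1 (0.0551 to 0.0793) and Ncl (0.0545 to 0.078). There Fbl (0.055 to 0.0713), Rrp12 (0.0816 to 0.149) and Rrs1 (0.0881 to 0.125) also lost theirs without 24 h library 002, and Bop1 (0.0612 to 0.0866) lost its call without 24 h library 001 or 0 h library 002 or 003. In macrophage mono-culture, Ncl (0.0794 to 0.173), Nop56 (0.0685 to 0.113) and Utp20 (0.0897 to 0.154) lost theirs without 24 h library 001 or 003 or 0 h library 002 or 003. Without 0 h library 002 alone Fbl (0.0553) and Polr1b (0.0648) did, without 0 h library 002 or 003 Rrp12 did (0.0938 and 0.0537), and without either of these or 24 h library 002 Bop1 did (0.051 to 0.128). Myc and Rrs1 kept their calls there in all 6 cases, with adjusted p up to 0.0292 for Myc. In macrophage co-culture, Polr1b (0.082 to 0.107) and Rrp12 (0.063 to 0.0944) lost theirs without 24 h library 001 or 003 or 0 h library 002 or 003, Ncl (0.0706 to 0.162) and Npm1 (0.0662 to 0.171) also without 24 h library 002, and Polr1a without 24 h library 001 (0.0504) or 0 h library 002 (0.0567). Every one of these changes stayed below 0.

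At 6 h after myelin none of the 37 genes was called in any of the 4 comparisons with 0 h, where 2.15% and 0.213% of all genes were called in macrophages in mono- and co-culture and 0.00735% and 0.0147% in tumour cells. DESeq2 called none of the 37 there either (5.2%, 2.36%, 0.205% and 0.207% of all genes), and 2, 1, 0 and 0 of them had an unadjusted p under 0.05. In macrophages 2152 and 1575 of all 13165 genes had such a p. The median changes were 0.07, -0.06, 0.08 and 0.05. Myc had the lowest value of the 37 in each case, at -0.59 ± 0.28, -0.52 ± 0.28, -0.41 ± 0.28 and -0.28 ± 0.28. In macrophage mono-culture Myc fell with the block (adjusted p = 0.0169), where 2.67% of all genes were called lower, and no other gene of the 37 was called at 6 h with it. In co-cultured macrophages Myc held 35.5, 52.6 and 43.1 CPM at 6 h, between its values of 0 h and 24 h on average. Ncl, in contrast, held 485, 733 and 660 CPM at 6 h in macrophage mono-culture, overlapping its 0 h libraries (0.28 ± 0.14, adjusted p = 0.347).

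Co-culture was compared with mono-culture at each time. In macrophages at 24 h, 2 of 37 genes were higher in co-culture, Heatr1 and Nolc1, against 14.3% of all genes, and 30 of the 37 differences were above 0, with a median of 0.19. Heatr1 libraries held 65.4, 68.8 and 53.8 CPM for macrophages alone, against 76.8, 89.5 and 81.2 CPM for co-cultured ones (0.40 ± 0.14, adjusted p = 0.0381). Nolc1 held 55.9, 59.6 and 50.9 CPM and 64.7, 87.8 and 77.5 CPM (0.47 ± 0.17, adjusted p = 0.048). Neither gene overlapped between cultures, but the share called was below that of all genes. The calls rested on few libraries. Without mono-culture library 001 or 003 or co-culture library 002 none of the 37 was called (2472, 2822 and 2682 of all genes). Without co-culture library 003 1 was (3100 of all genes), and without co-culture library 001 or mono-culture library 002 5 and 6 were (3094 and 4079). Heatr1 lost its call without mono-culture library 001 or 003 or co-culture library 002 or 003 (adjusted p of 0.0609 to 0.146), and Nolc1 also without mono-culture library 002 (0.0553 to 0.194). DESeq2 called 8 (25.3% of all genes). Myc held 0.80 ± 0.29 more in co-culture at 24 h, with no overlap between cultures (adjusted p = 0.0552). Of the 8 mesenchymal markers tested, 7 were higher in co-cultured macrophages at 24 h, with a median of 6.50, and their part in the members' differences was not tested. At 0 h and 6 h no member was called between macrophage cultures, where 13.7% and 9.94% of all genes were called. DESeq2 called none there (12.9% and 10.3% of all genes). An unadjusted p under 0.05 was found for 3 and 0 members, against 3478 and 3017 of all 13165 genes. At 0 h the block called 4 members higher in co-culture (10.6% of all genes higher), Dkc1, Nop58, Ncl and Npm1, and 1 was called when mono-culture library 002 was left out (1427 of all genes).

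In tumour cells all 37 genes stood higher in co-culture than in mono-culture at 0 h, 6 h and 24 h, with median differences of 0.26, 0.20 and 0.45, and none was called. Of all genes, 0% were called at 0 h and at 6 h and 0.0735% were called higher at 24 h. An unadjusted p under 0.05 was reached by 2, 1 and 24 of the 37, and the share of all genes reaching it is not given here. With the block, 29 of the 37 were higher in co-culture at 24 h (4.39% of all genes) and none at 0 h or 6 h (0.948% and 0.00735%). DESeq2 called 0, 0 and 7 (0%, 0% and 4.17% of all genes). With libraries 002 and 003 alone, 30, 13 and 36 were called (15.8%, 9.16% and 24.1% of all genes), and without co-culture 24 h library 001 8 were called at 24 h (478 of all genes). Dkc1 had the largest difference at 24 h, with 25.7, 31.1 and 28.3 CPM for tumour cells alone against 32.4, 63.6 and 53.9 CPM for co-cultured ones (0.82 ± 0.25, adjusted p = 0.163, 0.0303 with the block). Polr1b libraries held 18.2, 21.3 and 20.7 CPM for cells alone, against 26.2, 36.8 and 35.9 CPM for co-cultured ones (0.72 ± 0.20, adjusted p = 0.127, 0.0199 with the block). In both genes every co-culture library was above every mono-culture library, and library 001 was the lowest of its group. Summed macrophage markers in the same tumour libraries at 24 h were 17.1, 1580 and 2020 CPM for cells alone, against 27.8, 1440 and 1490 CPM for co-cultured ones, so they were lower in co-culture in libraries 002 and 003. At 0 h they were higher in co-culture in each library number, at 23.1, 1800 and 1180 CPM against 15, 306 and 409 CPM. All 15 macrophage markers stood higher in co-culture then, with a median of 2.09, and 9 were called with the block. At 6 h 9 of 15 stood higher, with a median of 0.14, and at 24 h none did, with a median of -0.50. The part of these markers in the members' differences was not tested.

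**Figure D4:**
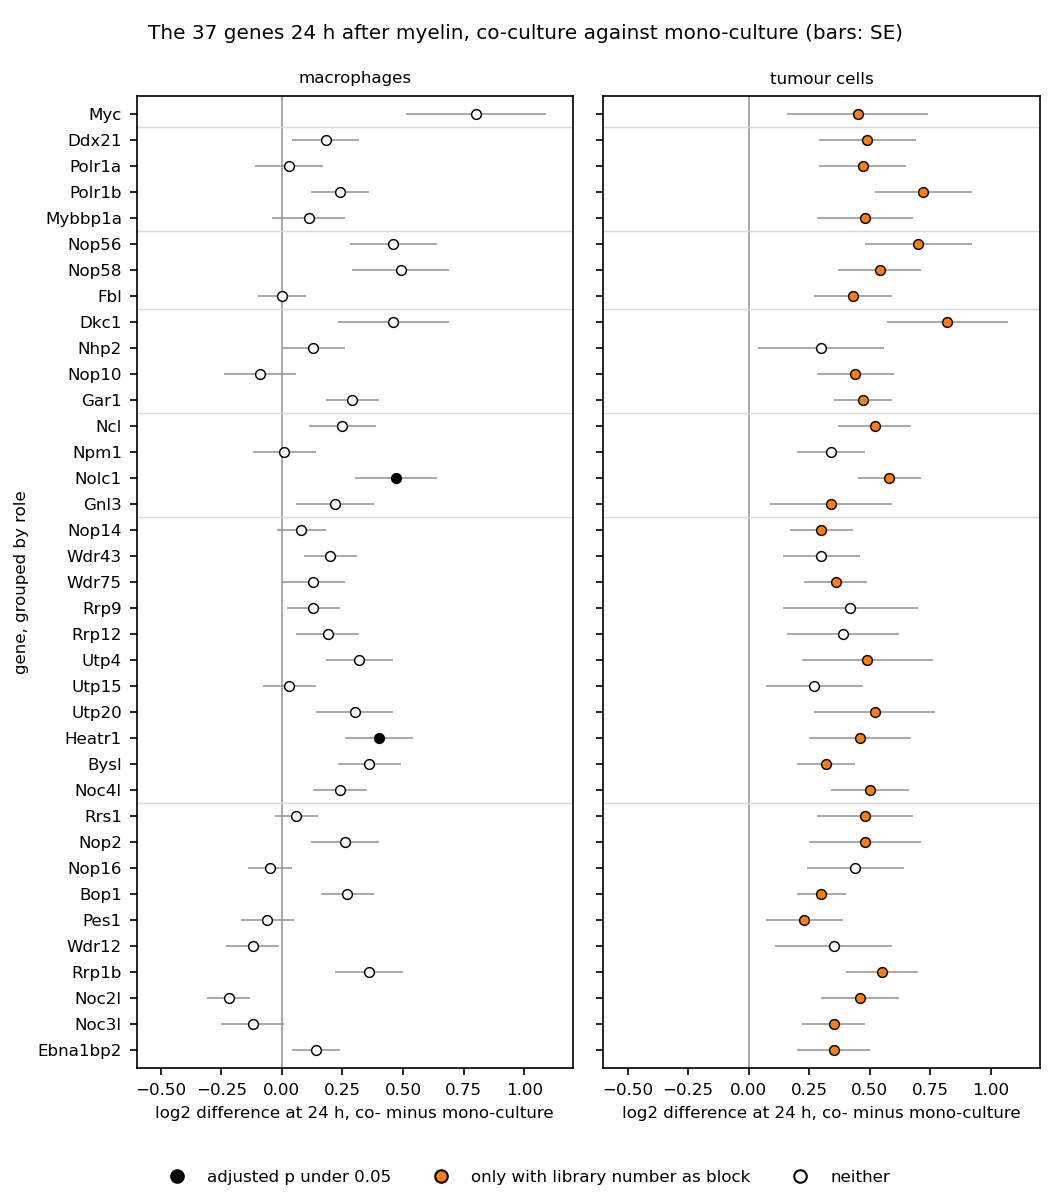
Log2 difference at 24 h after myelin, co-culture minus mono-culture (x axis), of the 37 genes (y axis, grouped by role) in macrophages and tumour cells, with standard errors as bars. In tumour cells all points lie right of 0 and 29 are called in the blocked fit alone, while in macrophages 2 are called, Nolc1 and Heatr1, and values lie on both sides of 0. The block is not drawn for macrophages, where library numbers did not pair.

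Whether the change with myelin itself differed between cultures was tested as an interaction. None of the 37 was called in macrophages at 6 h or 24 h (0% and 0.0152% of all genes) or in tumour cells (0% and 0%), nor with DESeq2 (0% and 0.479%, and 0% and 0.00365%). At an unadjusted p under 0.05, 1 passed in macrophages at 6 h and none in the other 3 cases. At 24 h the median difference, co-culture minus mono-culture, was 0.04 in macrophages and 0.23 in tumour cells, where 36 of 37 were above 0. A difference in response between co-cultured and mono-cultured tumour cells is therefore not shown. Comparing the 24 h change between the 2 cell types in mono-culture called none of the 37 either (3.9% of all genes; median 0.15, 1 with an unadjusted p under 0.05), nor did DESeq2 (7.17%).

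Before myelin, macrophages and tumour cells in mono-culture differed in 20 of the 37 genes, with 17 lower and 3 higher in macrophages, where 37.7% of all 14776 genes were lower and 32.4% higher. Against these shares, 17 of 37 lower lay only somewhat above that of all genes and 3 of 37 higher lay below. Over both directions together, the members were called less often than all genes. Levels here are on the scale of all 36 libraries. Myc held 38.3, 65.5 and 63.2 CPM in macrophages and 113, 174 and 179 CPM in tumour cells (-1.47 ± 0.32, adjusted p = 0.000185). Utp4 held 29.7, 37.0 and 33.9 CPM in macrophages and 62.6, 90.1 and 89.7 CPM in tumour cells (-1.26 ± 0.24, adjusted p = 3.01e-05), and Nop58 had -0.98 ± 0.21 (adjusted p = 0.000132). None of these 3 genes overlapped between cell types. Noc2l, which acts with the large subunit and binds histones, and shares exonic bases with Samd11, was the member most above tumour cells, at 133, 181 and 151 CPM against 61.7, 75.8 and 74.3 CPM (1.13 ± 0.14, adjusted p = 5.62e-08). Utp15 (0.49 ± 0.17, adjusted p = 0.0119) and Fbl (0.34 ± 0.15, adjusted p = 0.0455) were the other members higher in macrophages. None of the 4 RNA polymerase I genes was called (-0.39 to -0.23).

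Other genes of the pathway also fell at 24 h. Counts are given in the order macrophage mono- and co-culture, tumour mono- and co-culture, where 7.61%, 6.02%, 6.81% and 0.309% of all genes were called lower, and with the block 11.6%, 10.3%, 15% and 5.03%. Of 39 other small subunit processing genes, 12 fell in macrophage mono-culture, 12 in macrophage co-culture, 8 in tumour mono-culture and 0 in tumour co-culture, with medians of -0.15, -0.19, -0.40 and -0.29. In the last, 16 had an unadjusted p under 0.05, and the share of all genes with such a p is not given here. Tsr1, a maturation factor of the small subunit, fell by log2 changes of -0.68 ± 0.16 and -0.62 ± 0.16 in macrophages. Of 44 other large subunit genes, 10, 7, 10 and 1 fell and Nsa2 rose in macrophage mono-culture, with medians of -0.22, -0.19, -0.36 and -0.29. Ppan fell in both macrophage cultures (-0.68 ± 0.11 and -0.57 ± 0.11), as did Gtpbp4, which also fell in tumour co-culture (-0.36 ± 0.07, adjusted p = 0.0294). With the block the small subunit list had 15, 17, 25 and 13 falling and the large subunit list 16, 18, 28 and 17. Of 11 other snoRNP genes 3, 1, 4 and 0 fell (4, 1, 6 and 1 with the block), with Snu13, a U3 and U4 snRNP protein, falling in the first 3 (-0.59 ± 0.13, -0.63 ± 0.12 and -0.55 ± 0.13). Of 13 other RNA polymerase I genes 1, 1, 0 and 0 fell, Cd3eap in both macrophage cultures, and Ttf1 rose in tumour mono-culture. In mono-cultured macrophages 1 of 13 is about the share of all genes called lower. With the block 3, 2, 5 and 1 of the 13 fell. The RNA exosome, which trims precursor RNA, had 3, 2, 4 and 0 of 13 falling, and 7, 4, 6 and 1 with the block.

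Ribosomal proteins are the parts that the assembly factors put together. Of 74 cytosolic ribosomal protein genes tested, none fell in macrophage mono-culture or in either tumour culture, and Rpl13a rose in the first (0.40 ± 0.12). Their medians were 0.05, -0.01 and 0.03, and 5, 3 and 0 had an unadjusted p under 0.05. In macrophage mono-culture 3842 of all 13165 genes had such a p, and the share in tumour cells is not given here. In macrophage co-culture 15 of 74 fell, with a median of -0.19, led by Rps29 (-0.43 ± 0.12) and Rps27a (-0.41 ± 0.09). With the block 22 fell there, 1 fell in tumour mono-culture and none in the others. Ribosomal protein genes have many near-identical pseudogene copies, so these counts are uncertain. RNA polymerase III had 1, 2, 1 and 0 of 21 falling (2, 4, 4 and 1 with the block). Without the block these counts are near the shares of all genes called lower. The gene Polr3g of this polymerase was among them, falling in 3 comparisons by -0.83 ± 0.19, -1.11 ± 0.20 and -1.20 ± 0.22 (tumour co-culture not called), and Maf1, its repressor, rising in macrophage mono-culture (0.33 ± 0.10). Among 34 translation factors 4, 9, 6 and 0 fell (9, 16, 17 and 6 with the block), with Eif5a lowest in macrophages (-0.65 ± 0.13 and -0.69 ± 0.13).

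**Figure D5:**
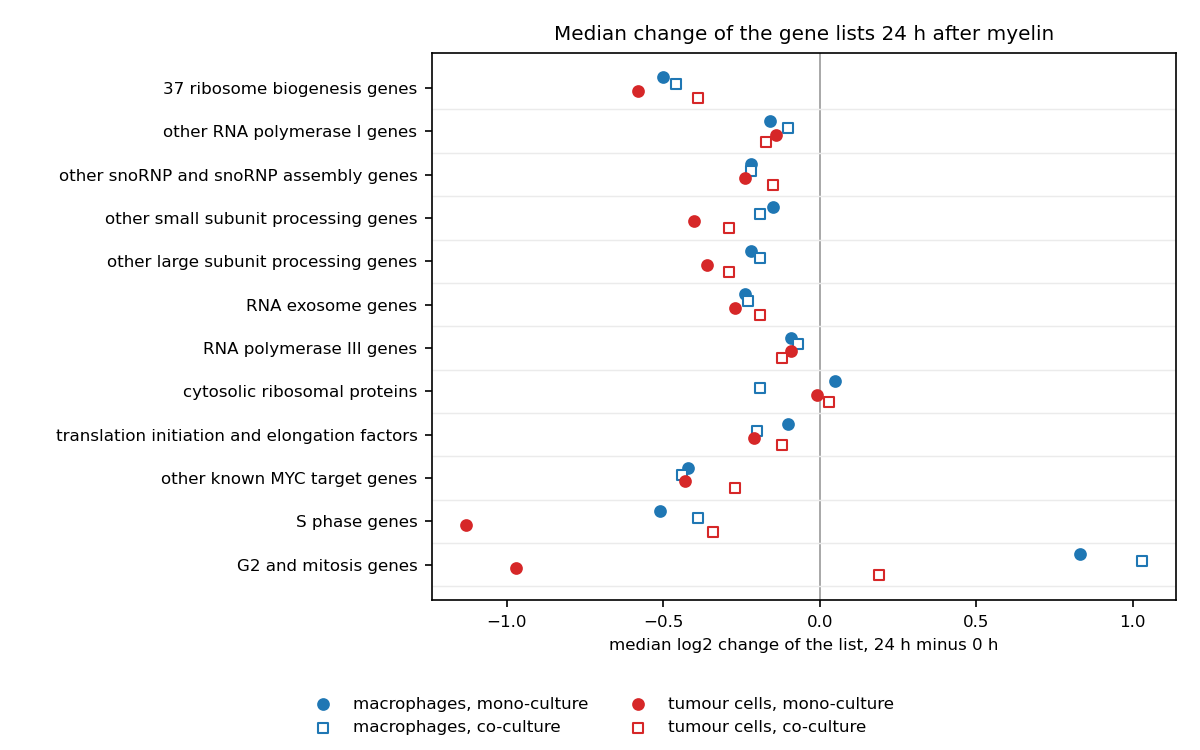
Median log2 change from 0 h to 24 h after myelin (x axis) of the 37 genes and 11 other lists (y axis), with filled circles for mono-culture and open squares for co-culture, macrophages in blue and tumour cells in red. The 37 genes lie between -0.58 and -0.39, ribosomal proteins between -0.19 and 0.05, and G2 and mitosis genes between -0.97 and 1.03.

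Other known MYC targets and cell cycle genes were read beside the members. Of the MYC target genes outside the members, 15 of 30 fell in macrophage mono-culture, 17 of 30 in macrophage co-culture, 11 of 31 in tumour mono-culture and 0 of 31 in tumour co-culture (22, 20, 25 and 6 with the block), with medians of -0.42, -0.44, -0.43 and -0.27. Examples are Odc1, the first enzyme of polyamine synthesis (-0.94 ± 0.23 and -0.81 ± 0.22 in macrophages), and Cad, of pyrimidine synthesis (-0.81 ± 0.17 in tumour mono-culture). S phase genes fell in 6 of 20 in macrophage mono-culture and 18 of 20 in tumour mono-culture, Mcm3 by -1.42 ± 0.25 in the latter, and in 0 of 20 in each co-culture, where 9 and 3 had an unadjusted p under 0.05. In macrophage co-culture 3606 of all 13165 genes had such a p, and the share in tumour co-culture is not given here. With the block 11, 7, 20 and 0 of the S phase genes fell, in the order above. G2 and mitosis genes rose in macrophages, 12 of 20 in mono-culture and 17 of 20 in co-culture, Ccnb2 by 1.43 ± 0.28 and 1.72 ± 0.28, while in tumour mono-culture 1 of 20 fell (10 with the block) and the median was -0.97. In mono-culture the 37 genes thus stood lower in both cell types while G2 and mitosis genes stood on opposite sides of 0. The part of cell cycle differences in the members' changes was not tested.

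The members' patterns were compared with that of Myc by Pearson's r of log2 CPM over the 18 libraries of a cell type, as a description. The 18 libraries share culture groups and library numbers. In macrophages the closest were Rrp1b (0.92), Nop58 (0.92), Ddx21 (0.87), Dkc1 (0.87) and Utp20 (0.86), and Utp15 was the least like Myc (0.15). In tumour cells they were Rrp9 (0.93), Rrs1 (0.92), Fbl (0.91), Mybbp1a (0.91) and Bop1 (0.90). There Rrp1b, among the closest in macrophages, was the least like Myc (0.69). Genes outside the members were not compared with Myc in this way. The groups with the lowest mean were 24 h mono-culture for 30 and 24 h co-culture for 7 of the 37 genes in macrophages, and 24 h mono-culture for all 37 in tumour cells. The group with the highest mean was co-culture at 6 h for 26 and at 0 h for 11 of the 37 in tumour cells. In macrophages it was co-culture at 0 h for 18, co-culture at 6 h for 12, mono-culture at 6 h for 4 and mono-culture at 0 h for 3.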

How the data were processed

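RNA sequencing of 36 mouse libraries was deposited by the authors as a table of raw gene counts, not normalised. Per the submitters' processing notes the genome build is mm10, and no source used here names the aligner or the counting tool. Per the labels' protocols, libraries were made by oligo-dT priming and template switching from a few nanograms of total RNA of sorted cells.

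Groups came from the titles. Each cell type's 18 libraries formed 1 edgeR 4.0.16 fit (limma 3.58.1, R 4.3.3; TMM, filterByExpr, robust quasi-likelihood), and all 36 formed 1 fit for the 2 comparisons between cell types, which gave 20 comparisons. The standard error is the size of the change over the square root of the test's F. Spread between libraries, as edgeR's biological coefficient of variation, was 0.164 for macrophages and 0.225 for tumour cells. Blocking on the number took it to 0.102 and 0.114. The number was taken to pair libraries where every same-number correlation of deviations was over 0.1. This held in 14 comparisons (lowest 0.157) and not in 6 (lowest -0.0586), namely co-cultured against mono-cultured macrophages at 6 h and 24 h, the macrophage interactions and both comparisons between cell types. The pairing comes from these data, not from the labels. The unblocked fit was also run on simulated counts, drawn with the spread of the blocked fit and without effects of library number. That run therefore does not measure how the unblocked fit does on these libraries.

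The members, the 18 other gene lists (399 of 411 genes found) and the tests were chosen with earlier results of these data known. Values are given for Myc, 12 fixed members, the 3 largest called changes per direction, members of widest and narrowest range, and up to 3 called genes per other list. Other members named with values were chosen after these were seen. Besides the main fit, DESeq2 1.42.0, size factors by RLE, testing without the filter on low counts, the compared groups alone, the block, each library left out and, added after seeing the data, libraries 002 and 003 alone were run. Promoter windows are RefSeq's.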

Additional observations from a re-analysis of the deposited data

How the results depend on the processing

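The median change of the 37 genes kept its direction in the 4 comparisons of 24 h with 0 h under every alternative run, and the counts moved. With the library number as a replicate block, 1 gene was called in macrophage mono-culture at 6 h (668 of all 13165 genes). Between macrophage cultures 4 were called at 0 h (2561 of all genes) and 14 at 24 h (4675 of all genes). Of these 14, 13 were higher and 1 lower, and 2 were called without the block. The share of the 37 called there at 24 h was near that of all genes. In tumour cells 37 were called in mono-culture at 24 h, 24 in co-culture and 29 between cultures at 24 h (3793, 1263 and 833 of all 13603 genes). The numbers did not pair the libraries in 6 comparisons, and the block changed no other count of the 37 genes by over 1.5 times. The macrophage cultures compared at 24 h gave 7 with RLE size factors, 8 with DESeq2 and 4 with libraries 002 and 003 only (3723, 3911 and 2987 of all genes). The tumour cultures compared at 24 h gave 7 with DESeq2 (437 of all genes). Tumour mono-culture at 24 h gave 10 without the low-count filter (842 of all genes). With libraries 002 and 003 only, tumour counts were 37 and 35 at 24 h in mono- and co-culture, 30, 13 and 36 between cultures at 0 h, 6 h and 24 h, and 1 for the interaction at 24 h. Of all genes, 4828, 3038, 2121, 1232, 3248 and 598 were called in these, in that order. The cause was not tested.

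Leaving out 1 library gave 9 to 27 called in macrophage mono-culture at 24 h, 6 to 24 in macrophage co-culture, 2 to 16 in tumour mono-culture, 0 to 6 in tumour co-culture, 0 to 6 between macrophage cultures and 0 to 8 between tumour cultures at 24 h, 0 to 1 between macrophage cultures at 0 h and 16 to 24 between cell types. Of all genes, 772, 664 and 668 were called at the lowest counts of macrophage mono- and co-culture and tumour mono-culture. At the highest counts of tumour co-culture, of macrophage and tumour cultures compared at 24 h and of macrophage cultures at 0 h, 621, 4079, 478 and 1427 were.

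Small differences changed sign. Between macrophage cultures at 24 h Fbl was 0.03 with RLE size factors, without the filter or with DESeq2 and 0.05 with libraries 002 and 003 only, where Pes1 was 0.03. Between cell types, without the filter, Heatr1 was 0.06 and Rrs1 0.01. With a library left out, Myc ranged from 0.00 to 0.32 between macrophage cultures at 0 h, from -0.12 to 0.38 and -0.11 to 0.42 in the 6 h interactions of macrophages and tumour cells, and from -0.16 to 0.28 and -0.01 to 0.44 between tumour cultures at 0 h and 6 h. Between macrophage cultures at 24 h, Fbl ranged from -0.05 to 0.06, Npm1 from -0.04 to 0.10 and Pes1 from -0.09 to 0.00, and between cell types Heatr1 from -0.19 to 0.08 and Rrs1 from -0.22 to 0.04.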
